A study of Mus musculus with 16 samples.

Results

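The comparison described here is the day by treatment interaction in mouse jejunal organoids with floxed Hnf4a alleles, given 4OHT or vehicle. For each gene it is the difference between 4OHT and vehicle at day 4 minus the same difference at day 2. The comparison uses all 16 libraries of the series, 4 in each of 4 groups: DMSO at day 2, 4OHT at day 2, DMSO at day 4 and 4OHT at day 4. The organoids are cultures of jejunal epithelium, grown in a gel, from mice of the C57BL/6 strain with the genotype Villin-CreERT2; Hnf4aflox/flox, in which a tamoxifen-activated Cre recombinase is driven by the promoter of the epithelial gene Villin. 4OHT (hydroxytamoxifen, 0.5 µM for 24 h) switches the recombinase on, after which the cultures were split, and DMSO is the vehicle. The control groups carry the same Cre and the same floxed alleles, and no group received 4OHT without floxed alleles, so an effect of 4OHT or of active Cre and an effect of losing Hnf4a cannot be told apart. The labels give neither age nor sex of the mice, and they do not say whether the 4 libraries of a group came from separate mice or cultures. The p-values therefore reflect library-to-library spread, part of which may be technical. A harvest at day 4, counted from passage, is the only one that the labels' protocol describes, and what day 2 counts from is not stated. Of 16597 genes tested, 278 had a called interaction.

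HNF4A is a nuclear receptor transcription factor of liver, kidney and gut epithelium, where it binds enhancers and promoters of genes for absorption, lipid handling and detoxification. In the small intestine it shares many binding sites with its paralogue HNF4G, and the title of the series ties it to Wnt3, the Wnt ligand made by Paneth cells, and to Paneth cell fate. Organoids seeded from a passage first regrow as cysts of cycling cells and then bud and differentiate. The controls also changed between the days here, and whether such regrowth underlies that change was not tested. An interaction of 0 means that 4OHT changed a gene by the same factor at both days, whatever the controls did.

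A gene was called where edgeR's quasi-likelihood test gave a Benjamini-Hochberg adjusted p below 0.05 over all genes tested. The called genes were sorted by whether the effect of 4OHT at each day also passed that threshold. An effect "grew" where both days passed in the same direction and day 4 was the larger, "faded" where day 4 was the smaller, and "turned" where both days passed in opposite directions. In the remaining classes the effect passed at day 4 only or at day 2 only. The gene lists below were chosen with earlier results of these data known. Their shares of called genes are therefore descriptions and not tests. Levels are CPM, counts scaled to 1000000 per library with TMM factors, differences are on the log2 scale with standard errors (SE), and fold changes come from the fitted differences.

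Library totals ran from 63791712 to 93322956 counts. Hnf4a itself (ENSMUSG00000017950, chr2:163506808-163572910, plus strand, GRCm38) lay at 979 to 1046 CPM in the DMSO libraries and 482 to 532 CPM in the 4OHT libraries of day 2, and at 956 to 983 against 454 to 490 CPM at day 4. Its level in 4OHT was 0.5 times that in DMSO at day 2 and 0.485 times at day 4, with an interaction of -0.04 (SE 0.064, edgeR adjusted p = 0.7705). These gene-level counts also take in reads from exons outside the deleted part, and the labels do not name the floxed exons. Whether some cells in 4OHT kept an intact Hnf4a gene was not tested. Wnt3 likewise stood at 0.5 and 0.51 times its DMSO level at the 2 days, with an interaction of 0.03 (SE 0.12, edgeR adjusted p = 0.9344). The brush border list (digestive enzymes and microvillus genes) summed to 8640 to 12682 CPM in every library, and markers of other tissues were low: 10 of 19 stromal markers were listed in both tables and summed to 8.46 to 12.5 CPM, mostly Vim, and 12 of 22 immune and endothelial markers summed to 15.1 to 21.8 CPM, mostly Cd14, while Ptprc stayed at or below 0.0912 CPM, Cd3e at or below 0.0677 CPM and Lyz2 at or below 0.221 CPM. On the second principal component 4OHT day 4 replicate 4 stood apart at 34.1, against 16.6 to 25.7 in the other 3 libraries of its group.

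The interaction was called for 278 genes (1.68% of those tested), more positive at day 4 for 199 (1.2%) and more negative for 79 (0.476%). Below, 1.2% counts only more positive calls and 1.68% calls in either direction. List shares set beside 1.2% and those set beside 1.68% are not to be compared with one another. The effect of 4OHT itself was called for 26.9% of genes at day 2 and 29.3% at day 4, and the change from day 2 to day 4 for 53.3% of genes in DMSO and 51% in 4OHT. Most effects of 4OHT were thus not shown to differ between the days: of 2622 genes called at both days, 2588 went the same way and 34 the opposite way, and 96 of the 2622 (3.66%) had a called interaction. At an unadjusted p below 0.05 stood 2899 genes. A positive interaction, called or not, was found for 8485 of the 16597 genes tested. The called interactions had a median size of 0.573 on the log2 scale, and 58 were of 1 or more.

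**Figure D1:**
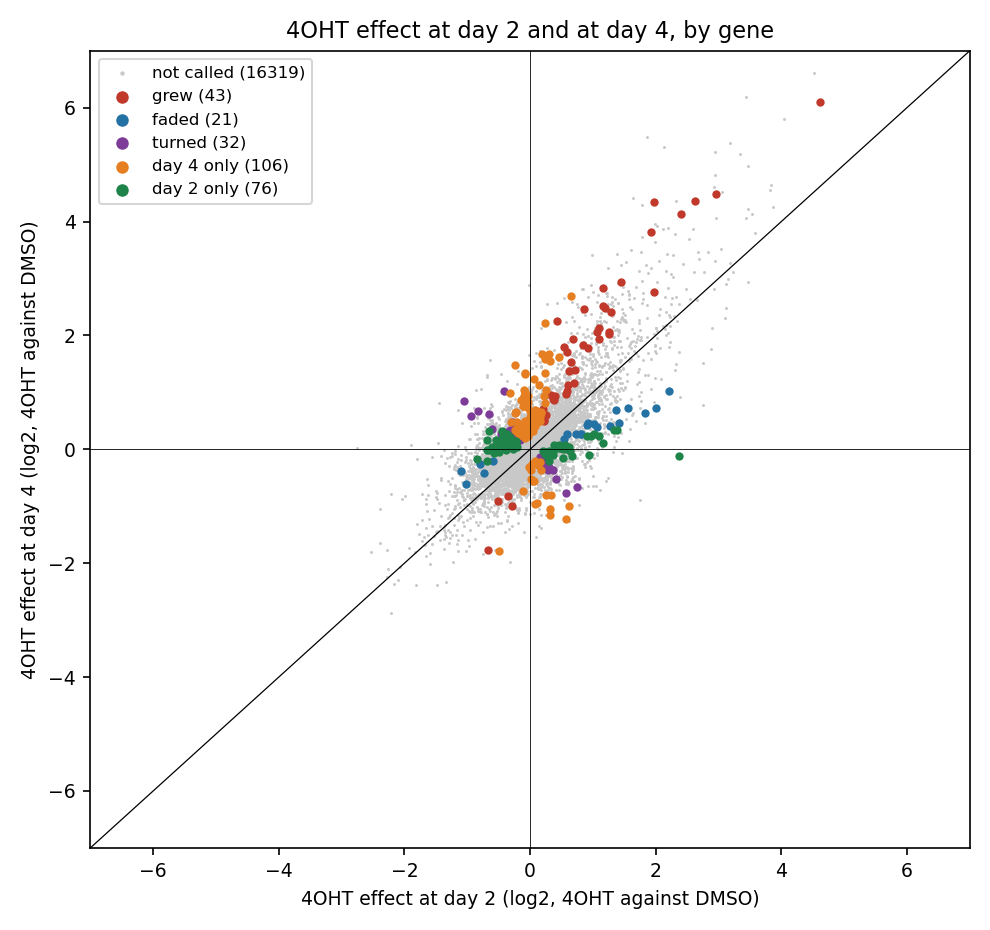
Effect of 4OHT at day 2 (horizontal axis, log2) against its effect at day 4 (vertical axis, log2), 1 point a gene, with the genes called for the interaction coloured by class and the diagonal marking equal effects. The 39 grown effects of higher genes lie above the diagonal at the upper right, turned effects in the upper left and lower right quadrants, and the median interaction over all genes tested was 0.006.

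By class, 43 effects grew (39 of genes higher in 4OHT, 4 of genes lower), 21 faded (16 higher, 5 lower) and 32 turned (23 from lower at day 2 to higher at day 4, 9 the other way). Another 106 genes had an effect at day 4 only (86 higher, 20 lower) and 76 at day 2 only (30 higher, 46 lower). The median size of the interaction was 0.863 among genes that grew, 0.646 among those that turned and 0.54 among those that faded. The same-numbered libraries of DMSO and 4OHT varied together at day 4 (correlation of their deviations from the group means 0.62 to 0.8) but not at day 2 (-0.11 to 0.47). With a replicate block within day, 1850 genes were called (11.1%), 1170 more positive and 680 more negative, among them all 278 with the same sign. With the block at day 4 only, 641 were more positive and 324 more negative. Below, "the replicate block" and p-values "with the block" refer to the block within day, which also pairs the day 2 libraries.

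The number of calls depended on single libraries, while the sign of each of the 278 genes held in all 16 fits that left out 1 library. These fits share most libraries with the fit that gave the calls, so a held sign was likely beforehand. Leaving out DMSO day 2 replicates 1, 2, 3 or 4 gave 93, 72, 81 or 502 more positive and 38, 33, 35 or 225 more negative genes. Leaving out 4OHT day 2 replicates 1 to 4 gave 127, 401, 66 or 83 more positive and 56, 137, 28 or 34 more negative. At day 4, leaving out the DMSO replicates gave 92, 110, 80 or 140 and 38, 55, 39 or 50, and leaving out the 4OHT replicates gave 221, 315, 77 or 331 and 79, 90, 34 or 150. Without 4OHT day 4 replicate 4, set apart on the second component, 263 of the 278 calls were kept. A call held in all 16 of these fits for 91 genes (19 that grew, 8 that faded, 18 that turned, 30 at day 4 only and 16 at day 2 only), and for each called gene named below the number of these fits that kept its call, or the libraries without which it was lost, is given where it was under 16.

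**Figure D2:**
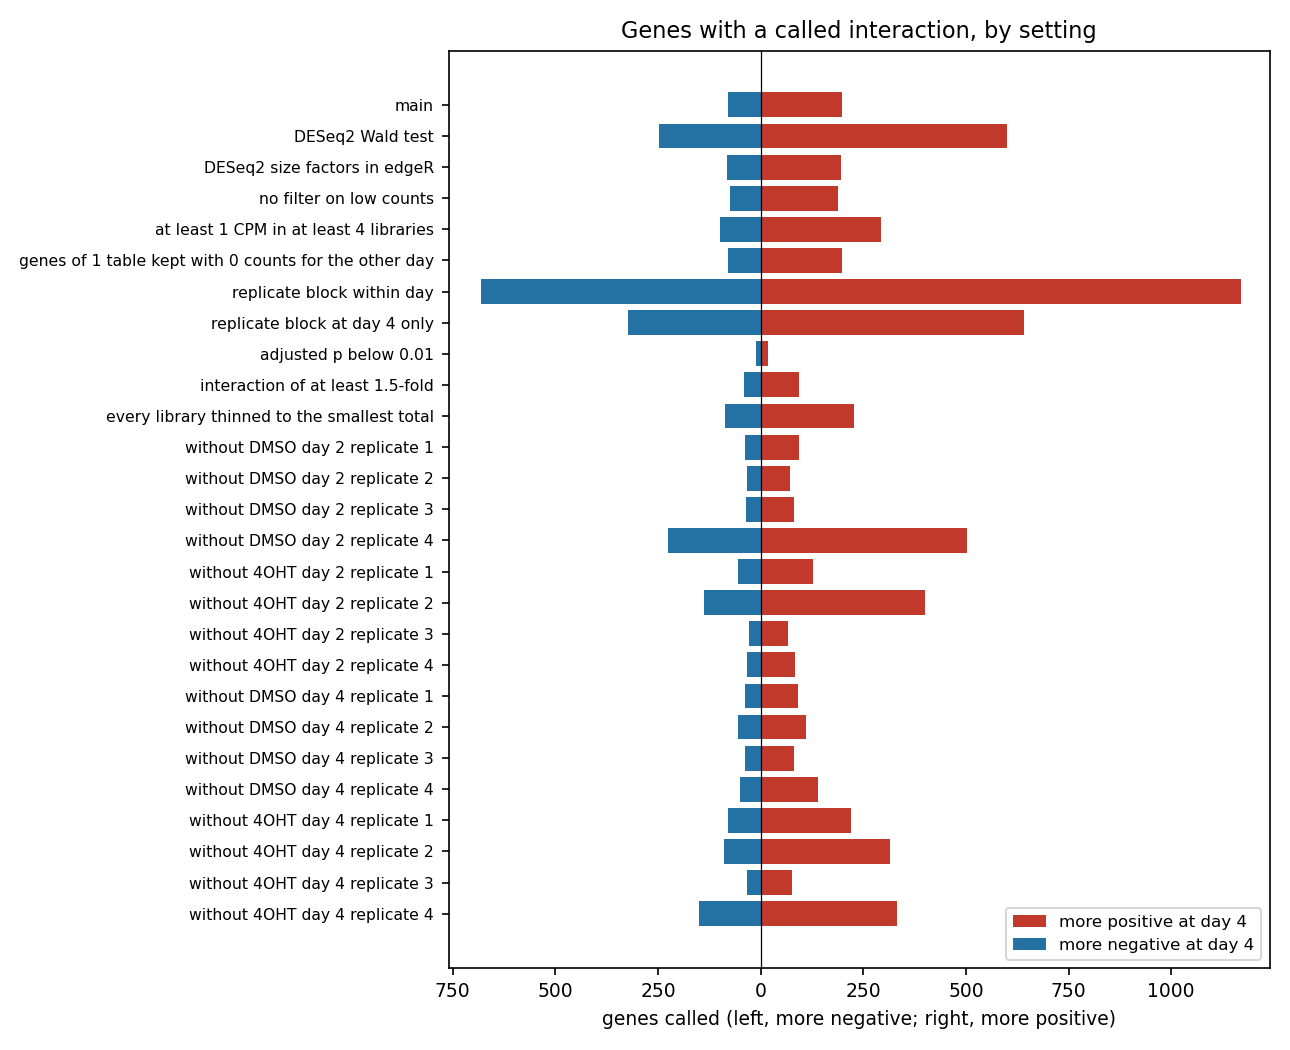
Number of genes with a called interaction (horizontal axis) under the fit that gave the 278 calls, 10 other settings and the 16 fits that left out 1 library, more positive to the right in red and more negative to the left in blue. That fit gave 199 and 79, the replicate block within day 1170 and 680, and the left-out fits 66 to 502 and 28 to 225.

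The controls changed between the days in a direction opposite to most of the called interactions. Of the 199 genes with a more positive effect at day 4, 159 fell in DMSO from day 2 to day 4, 19 rose and 21 were not called, against 4321 that fell and 4527 that rose among all genes tested. In 4OHT 72 of these 159 also fell, each by less, 68 were not called and 19 rose, and the median change over the 199 was -0.61 in DMSO and -0.03 in 4OHT. Of the 79 genes with a more negative effect, 48 rose in DMSO and 44 fell in 4OHT, with medians of 0.31 and -0.28. Since the interaction is the change in 4OHT minus the change in DMSO, part of this split follows from the arithmetic. The 2 days were deposited as separate tables, so for the change over time day and table cannot be told apart.

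**Figure D3:**
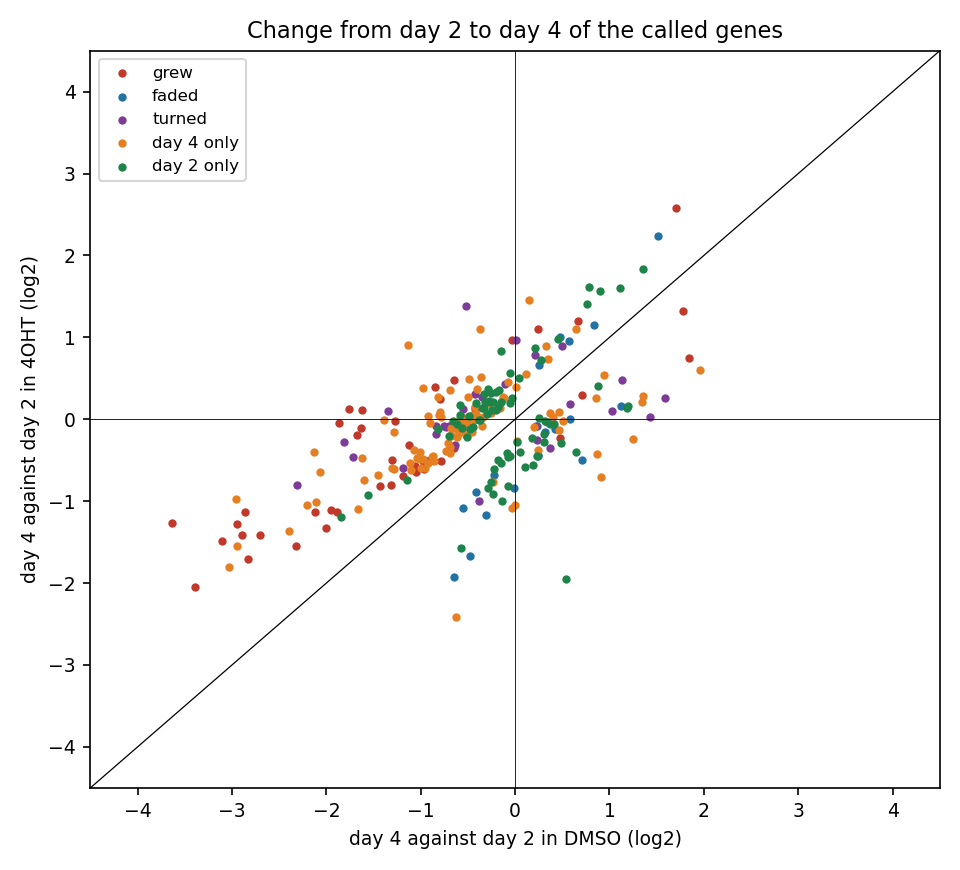
Change from day 2 to day 4 in DMSO (horizontal axis, log2) and in 4OHT (vertical axis, log2) of the 278 called genes, coloured by class, with the diagonal marking equal change. The 199 genes with a more positive interaction lie above the diagonal, and 159 of them fell in DMSO.

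Genes of epithelial defence and alarm were among those with the largest growing or turning effects. Reg3g (ENSMUSG00000030017, chr6:78466269-78468872, minus strand), a secreted lectin that kills Gram-positive bacteria, measured 374, 290, 307 and 218 CPM in DMSO and 465, 468, 366 and 309 CPM in 4OHT at day 2. At day 4 it measured 95.3, 80.2, 75.3 and 75.8 CPM in DMSO and 418, 389, 377 and 380 CPM in 4OHT. The groups overlapped at day 2 and were far apart at day 4, with the DMSO libraries low there and the 4OHT libraries of the 2 days overlapping each other. The 4OHT level was 1.35 times the DMSO level at day 2 and 4.79 times at day 4, an interaction of 1.82 (SE 0.21, edgeR adjusted p = 0.00043). Its neighbour Reg1 grew too (interaction 0.86, kept in 9 of the 16 left-out fits), and Reg3b, a lectin of the same family, differed at day 4 only (1.02). Of 8 tested genes in the list of Reg lectins and MHC class II genes, these 3 were more positive at day 4 and none more negative. That is 37.5%, against 1.2% of all genes. Reads of such near-identical family members may be shared between genes, since the labels do not give the counting rule.

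Nox1, the catalytic subunit of a superoxide-producing NADPH oxidase, turned. It measured 50.5, 54.1, 58.6 and 55.6 CPM in DMSO and 40.3, 43, 44.9 and 35.4 CPM in 4OHT at day 2, then 17.7, 19.4, 24.2 and 24.8 CPM in DMSO and 42.5, 41.7, 43.3 and 47.9 CPM in 4OHT at day 4. The groups did not overlap at either day: 4OHT lay below DMSO at day 2 and above it at day 4, and the 4OHT libraries of the 2 days overlapped each other. The level in 4OHT was 0.748 times that in DMSO at day 2 and 2.04 times at day 4, an interaction of 1.45 (SE 0.14, edgeR adjusted p = 6.8e-05). Noxo1, which organizes the same oxidase, fell in 4OHT at day 2 only (interaction 0.33), a call lost without DMSO day 2 replicate 2 or 4OHT day 2 replicate 4 (adjusted p up to 0.05658).

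Ccl20, the chemokine that draws Ccr6-bearing lymphocytes and dendritic cells to the epithelium, measured 8.35, 7.45, 7.46 and 7.31 CPM in DMSO and 6.23, 6.93, 6.67 and 6.12 CPM in 4OHT at day 2. At day 4 the values were 1.44, 1.95, 1.41 and 2.18 CPM in DMSO and 4.49, 4.19, 5.48 and 5.43 CPM in 4OHT. The day 2 effect did not pass (0.849 times, adjusted p = 0.1495) although the libraries did not overlap, and the day 4 level was 2.81 times the control. The interaction was 1.73 (SE 0.17, edgeR adjusted p = 6.8e-05). The neutrophil chemokine gene Cxcl1 behaved likewise at a lower level (interaction 1.35). Nfkbia, which holds NF-kB in the cytoplasm (0.67), and Nos2, the inducible nitric oxide synthase (1.53), turned from lower to higher. So did Zc3h12a, an RNase that degrades inflammatory mRNAs, which was named after its values were seen (0.59). In the list of Egf family, Nadph oxidase and alarm genes 7 of 31 tested members were called, all more positive (22.6% against 1.2% of all genes). The median interaction was 0.33 against 0.006 over all genes. With the replicate block 14 were more positive and 2 more negative, and with the block at day 4 only 13 and 2. The 7 ranged from 5 to 9 over the left-out fits.

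The called interferon-linked genes were higher in 4OHT at day 4. Ifit1bl1, of the interferon-induced Ifit family, measured 23.6 to 29.4 CPM in DMSO and 28.4 to 36.8 CPM in 4OHT at day 2, with overlap. The day 4 values were 9.24 to 12.8 CPM in DMSO and 39.1, 22, 27.2 and 44.3 CPM in 4OHT, with no overlap and the widest spread in 4OHT. Its interaction was 1.38 (SE 0.25, edgeR adjusted p = 0.01448). Irf7, the master factor of type I interferon genes, had an interaction of 0.88, and Batf2, an interferon-induced factor named after its values were seen, one of 1.1. Of 34 tested interferon response genes 2 were called (5.88% against 1.68% of all genes in either direction). They were Irf7 and the antiviral synthetase gene Oas1a (0.54, kept in 5 of the 16 left-out fits, adjusted p up to 0.103). The list had a median of 0.38 and 30 of 34 positive signs. With the replicate block 12 were called and with the block at day 4 only 8, all more positive. By the effect of 4OHT, 3 members were higher and 4 lower at day 2, and 13 were higher and 4 lower at day 4. B2m (-0.72 and -0.32) and Irf8 (-0.65 and -0.42) were lower at both days. Their positive interactions, which were not called, mean a smaller decrease. Among immune and endothelial markers the 8 tested had a median interaction of 0.44 with none called by edgeR (3 at an unadjusted p below 0.05, 1 by DESeq2), and the part of such cells in these values was not tested.

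**Figure D4:**
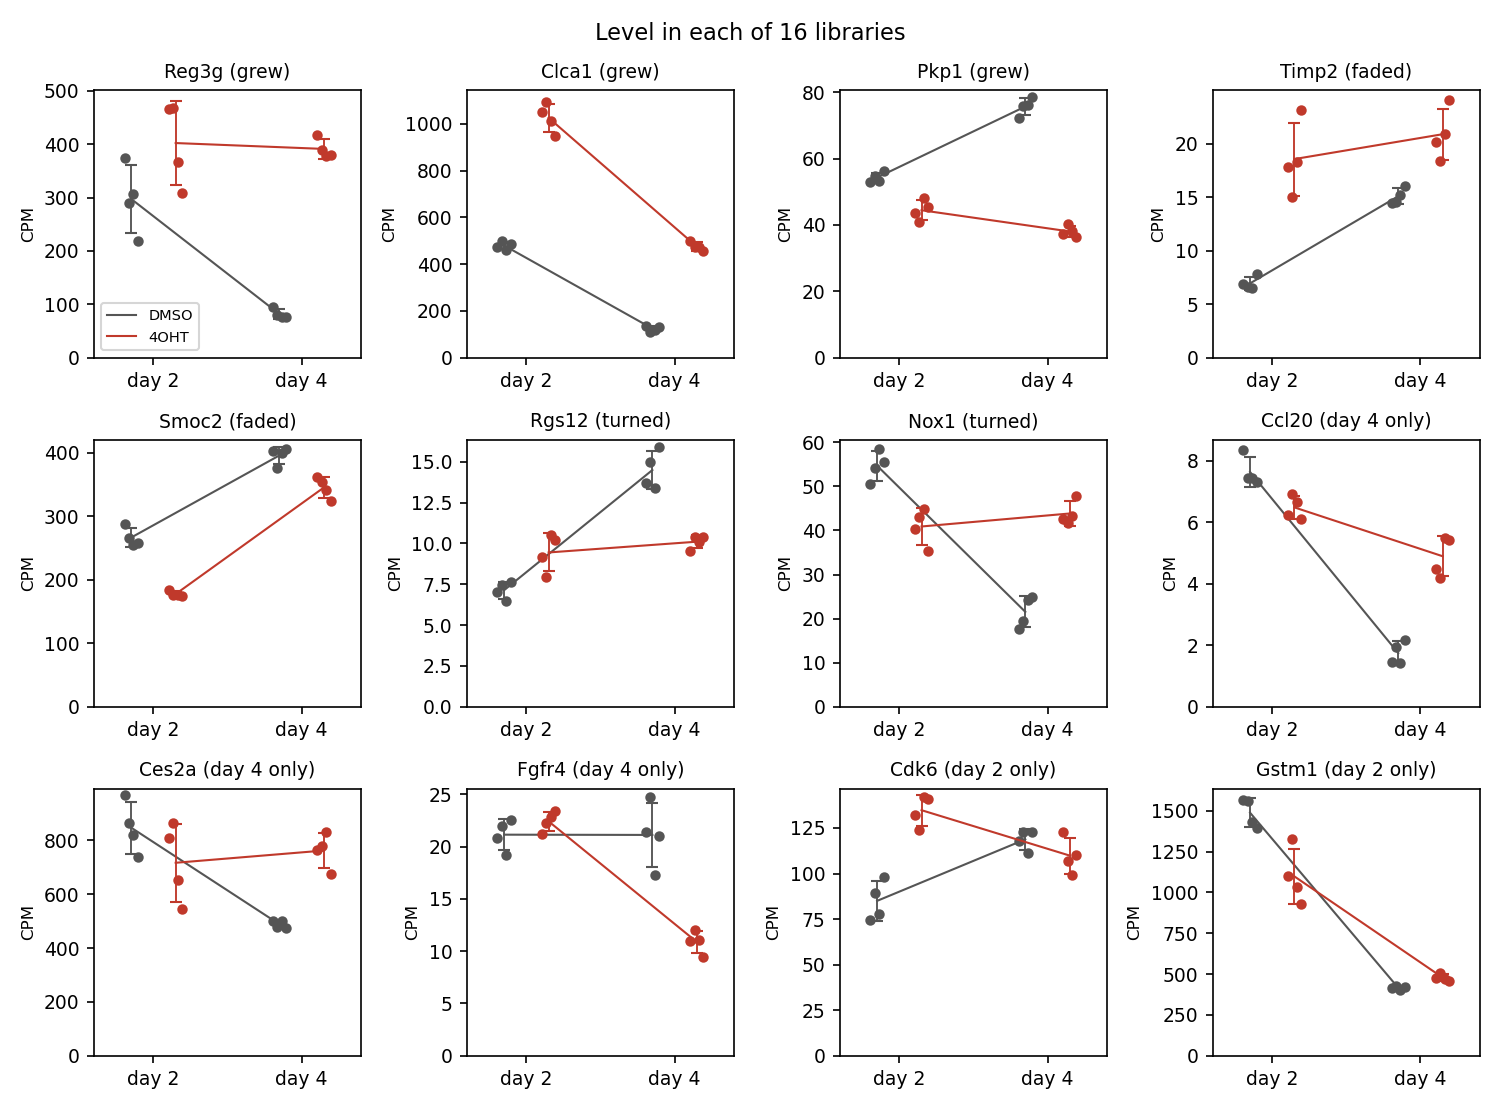
Level in CPM (vertical axis, from 0) of 12 named genes in each of the 16 libraries at day 2 and day 4, DMSO in grey and 4OHT in red, with lines through the group means and bars of 1 SD. Reg3g, Clca1, Nox1, Ccl20 and Ces2a were lower in DMSO at day 4 than at day 2, Rgs12 crosses in the opposite direction to Nox1, and the Cdk6 groups are apart at day 2 only.

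Goblet cells secrete mucus, and several of their genes, already higher in 4OHT at day 2, were further from the control at day 4. Clca1, a protease that processes the mucin network, measured 474, 499, 461 and 484 CPM in DMSO and 1049, 1093, 1010 and 949 CPM in 4OHT at day 2. At day 4 it measured 135, 111, 119 and 133 CPM in DMSO and 500, 472, 472 and 455 CPM in 4OHT. No groups overlapped within a day, and both treatments fell over time, DMSO by more. Clca1 stood at 2.14 times the control at day 2 and 3.82 times at day 4, an interaction of 0.84 (SE 0.089, edgeR adjusted p = 9.5e-05). Zg16, a lectin of the mucus layer, went from 2.39 to 4.18 times the control (interaction 0.8), and the potassium channel gene Kcnk6 from a log2 effect of 0.7 to 1.17. Agr2, which folds mucins, also grew (0.44), kept in 6 of the 16 left-out fits (adjusted p up to 0.08968).

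Of 27 tested goblet genes 5 were called, all more positive (18.5% against 1.2% of all genes), and 25 had a positive sign, with a median of 0.23. The fifth was the chemokine gene Ccl9, which lay at 66.7 to 81.5 CPM in DMSO and 35.2 to 37.3 CPM in 4OHT at day 2, and at 79.6 to 90.4 against 54.4 to 60.6 CPM at day 4. It was lower in 4OHT at both days without overlap, 0.494 and then 0.653 times the control, so its effect faded (interaction 0.4, SE 0.084, edgeR adjusted p = 0.02253). That call was lost without 4OHT day 2 replicate 3 or 4 or 4OHT day 4 replicate 3 (adjusted p up to 0.05724). Under the replicate block 13 goblet genes were more positive and 1 more negative, and with the block at day 4 only 8 and 1.

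Of 26 tested Paneth cell genes 2 were called, both more positive (7.69% against 1.2% of all genes), with a median interaction of 0.06, and the median effect of 4OHT was -0.42 at day 2 and -0.36 at day 4. By the effect of 4OHT, 19 members were lower and 1 higher at day 2, and 15 were lower and 4 higher at day 4. Mptx1, higher at day 4, thus went against most of its list. Mptx1, a mucosal pentraxin, measured 11.2, 8.78, 9.17 and 5.72 CPM in DMSO and 12.5, 10.4, 7.39 and 9.27 CPM in 4OHT at day 2. The values at day 4 were 8.16, 6.17, 6.54 and 6.01 CPM in DMSO and 24.3, 22.7, 21.3 and 17.1 CPM in 4OHT. The groups overlapped at day 2, and at day 4 every 4OHT library lay above every other library of the 16. The ratio was 1.14 at day 2 and 3.17 at day 4, an interaction of 1.48 (SE 0.26, edgeR adjusted p = 0.01208). Reg4, a lectin of secretory cells, was lower in 4OHT at day 2 only (interaction 0.53), a call lost without DMSO day 2 replicate 2 or 4OHT day 2 replicates 3 or 4 (adjusted p up to 0.05835). With the replicate block 6 Paneth genes were called and with the block at day 4 only 4, all more positive. Fewer cells of a type and less RNA per cell cannot be told apart in bulk libraries, here as for the other cell type lists.

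In the lists of xenobiotic metabolism, glutathione and Nrf2 targets, fatty acid oxidation and brush border, every called member was more positive at day 4, as were 199 of the 278 calls over all genes. Of 58 tested genes of xenobiotic, steroid and retinoid metabolism 14 were called, all more positive (24.1% against 1.2% of all genes). A positive sign was found for 56, with a median interaction of 0.45. These lists were chosen with earlier results known, so such shares only describe them. The median effect of 4OHT on this list was -0.36 at day 2 and 0.1 at day 4. Under the replicate block 35 were called and with the block at day 4 only 25, again all more positive. The 14 ranged from 4 to 26 over the left-out fits, and without 4OHT day 4 replicate 4 they were 23.

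Ces2a, a carboxylesterase of the endoplasmic reticulum, measured 968, 864, 820 and 737 CPM in DMSO and 807, 863, 652 and 545 CPM in 4OHT at day 2. By day 4 it measured 501, 479, 500 and 473 CPM in DMSO and 765, 778, 831 and 675 CPM in 4OHT. The groups overlapped at day 2 and were apart at day 4, where DMSO was lower than in any library of day 2. The ratio went from 0.846 (adjusted p = 0.1325) to 1.56, an interaction of 0.89 (SE 0.16, edgeR adjusted p = 0.01231). Akr1b8, an aldo-keto reductase, grew from 1.78 to 3.55 times the control (0.99), Akr1c19 of the same superfamily differed at day 4 only (0.68), and Cyp3a13, a drug-metabolizing cytochrome P450, turned (0.64). Ces1f, lower at day 2 only, had an interaction of 0.7 and was kept in 8 of the 16 left-out fits. Reads of carboxylesterase and Akr1c paralogues may be shared, and Akr1c19 also overlaps another called gene, Marcksl1-ps4 (kept in 6 of the 16 left-out fits), from which its reads cannot be told apart.

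Conjugation and antioxidant genes showed the same direction. Gstm1, a glutathione transferase, measured 1568, 1562, 1431 and 1394 CPM in DMSO and 1101, 1327, 1036 and 928 CPM in 4OHT at day 2, then 417, 424, 400 and 422 CPM in DMSO and 474, 509, 471 and 459 CPM in 4OHT at day 4. The libraries did not overlap at either day, 4OHT being the lower at day 2 and the higher at day 4, but the day 4 effect did not pass (1.15 times, adjusted p = 0.0687) and the gene is counted at day 2 only. Its interaction was 0.64 (SE 0.11, edgeR adjusted p = 0.01092). Gsta3 differed at day 4 only (0.49) and Gsta4, which clears lipid aldehydes, grew (0.67, kept in 6 of the 16 left-out fits, adjusted p up to 0.1026). In the glutathione and Nrf2 list 8 of 33 tested members were called, all more positive (24.2% against 1.2% of all genes), with a median of 0.36. With the replicate block 24 were called and with the block at day 4 only 16, all more positive.

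Of the fatty acid oxidation genes 13 were lower in 4OHT at day 2 and none higher, while 14 were higher at day 4 and 1 lower. All 37 tested members had a positive interaction, with a median of 0.28, and 9 were called (24.3% against 1.2% of all genes). With the replicate block 21 were called and with the block at day 4 only 13, all more positive. Acaa1b, a peroxisomal thiolase, measured 47.5, 37.3, 46.5 and 33 CPM in DMSO and 29.2, 27.9, 22.3 and 23.1 CPM in 4OHT at day 2. At day 4 it measured 66.9, 72.8, 74.3 and 67.6 CPM in DMSO and 71.8, 85.5, 80.6 and 77.6 CPM in 4OHT. Here both treatments rose over time, the 4OHT libraries started below every DMSO library, and the groups overlapped at day 4. The ratio was 0.624 at day 2 and 1.12 at day 4, an interaction of 0.84 (SE 0.15, edgeR adjusted p = 0.01208). The 43 subunits of oxidative phosphorylation also all had a positive sign, but edgeR called none (7 at an unadjusted p below 0.05, none by DESeq2, median 0.16). With the replicate block 5 were called, all more positive, and with the block at day 4 only none. Sdhb, a subunit of succinate dehydrogenase, had an interaction of 0.29 (adjusted p = 0.1501, and 0.02296 with the block).

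Brush border genes counted 5 calls among 33 tested, all more positive (15.2% against 1.2% of all genes), with 31 positive signs and a median of 0.39. Under the replicate block 16 were called and with the block at day 4 only 8, all more positive. The 5 ranged from 1 to 12 over the left-out fits. Mep1b, a metalloprotease subunit of the microvillus membrane, lay at 243 to 287 CPM in DMSO and 186 to 278 CPM in 4OHT at day 2, with overlap, and at 113 to 133 CPM in DMSO and 174 to 179 CPM in 4OHT at day 4, with none. Its interaction was 0.7 (SE 0.13, edgeR adjusted p = 0.0115). Alpi, intestinal alkaline phosphatase, measured 292, 309, 338 and 282 CPM in DMSO and 368, 435, 330 and 290 CPM in 4OHT at day 2, and 109, 121, 123 and 139 CPM against 203, 221, 269 and 250 CPM at day 4. The groups overlapped at day 2 and not at day 4, and the ratio went from 1.17 to 1.92. Its interaction of 0.72 (SE 0.16, edgeR adjusted p = 0.03187) was kept in 6 of the 16 left-out fits (adjusted p up to 0.08462). Sis, the disaccharidase sucrase-isomaltase, was lower at day 2 (0.693 times) and level at day 4 (0.994 times), with an interaction of 0.52 that did not pass (adjusted p = 0.1655, and 0.04564 with the block). The peptide transporter gene Slc15a1 had an interaction of 0.66 (adjusted p = 0.05609, and 0.02068 with the block).

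Alpi was the only called gene whose promoter held the 9-base core that HNF4 factors bind, CAAAGTCCA or its reverse complement, in the window from 250 bases before to 30 after the gene's start in RefSeq (GRCm38.p6). That is 1 of 206 called genes with a promoter entry, against 68 of 10907 genes tested (0.623%) and 71 of all 13900 windows (0.511%). The end of that window is shown because the match lies 19 bases before the start, with the motif in capitals. The whole window is chr1:87101577-87101856 on the minus strand.
Alpi promoter: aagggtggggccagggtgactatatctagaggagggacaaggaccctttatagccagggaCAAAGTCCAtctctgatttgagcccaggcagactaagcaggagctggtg
A match is a description of these letters and not a measured binding site, and sites of other spelling or in enhancers were not searched.

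Lipid absorption, transport and bile acid genes had few calls. Fgf15, the hormone by which the gut restrains hepatic bile acid synthesis, measured 15, 16.3, 14.3 and 16.6 CPM in DMSO and 15.1, 14.1, 15.3 and 14.5 CPM in 4OHT at day 2. The day 4 values were 2.28, 1.68, 1.95 and 2.18 CPM in DMSO and 5.81, 2.98, 4.09 and 7.32 CPM in 4OHT. The day 2 groups overlapped, both treatments fell, and at day 4 4OHT lay above DMSO in every library with the widest spread of the 4 groups. The interaction was 1.4 (SE 0.27, edgeR adjusted p = 0.01628). Fgfr4, the receptor for this hormone, moved in the opposite direction: 19.2 to 22.6 CPM in DMSO and 21.2 to 23.4 CPM in 4OHT at day 2, then 21.4, 24.8, 17.3 and 21 CPM in DMSO and 11, 12, 11.1 and 9.42 CPM in 4OHT at day 4. Only the 4OHT libraries of day 4 were low, at 0.514 times the control, with an interaction of -1.04 (SE 0.13, edgeR adjusted p = 0.00043).

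Of 39 tested genes of lipid absorption only Fgf15 was called (2.56% against 1.68% of all genes in either direction), although 32 had a positive sign and the median was 0.35. With the replicate block 19 were more positive and 1 more negative, and with the block at day 4 only 8 were more positive and none more negative. Apoa1, the main protein of high-density lipoprotein, stood at 0.723 and 1.17 times its control, with an interaction of 0.69 (adjusted p = 0.06335, and 0.01905 with the block). In the list of amino acid, peptide and sugar transport 1 of 26 tested was called (3.85% against the same 1.68%), with a list median of 0.44. The called member was the anion exchanger gene Slc26a6, so no transporter of amino acids, peptides or sugars in the list was called. Slc26a6 lay at 85.3 to 117 CPM in DMSO and 59.4 to 91.6 CPM in 4OHT at day 2, and at 65.8 to 71.8 against 71.5 to 95.6 CPM at day 4, overlapping at both days. Its interaction of 0.76 (SE 0.18, edgeR adjusted p = 0.03775) was kept in 4 of the 16 left-out fits (adjusted p up to 0.09621).

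**Figure D5:**
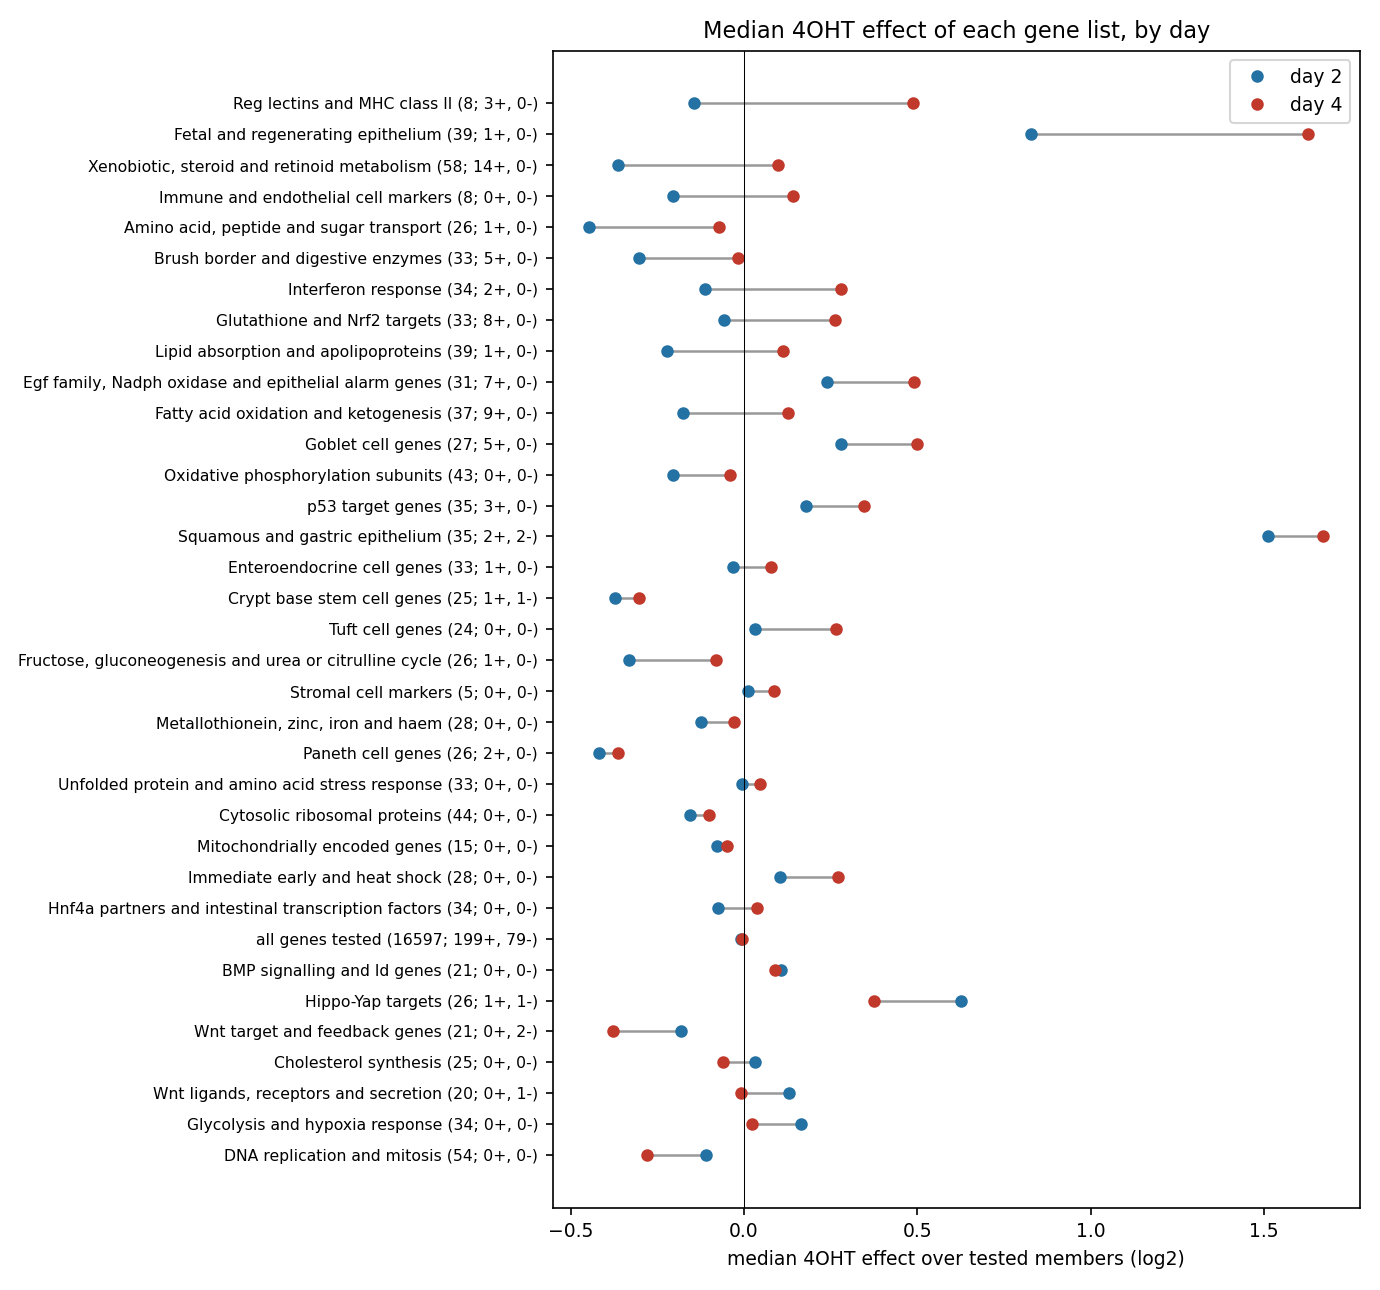
Median effect of 4OHT (horizontal axis, log2) over the tested members of each of 34 gene lists and over all genes tested, at day 2 in blue and day 4 in red, ordered by median interaction. The labels give the number of members tested and how many had a more positive (+) or more negative (-) called interaction, and the xenobiotic list lies at -0.36 at day 2 and 0.1 at day 4.

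Among cell cycle genes Cdk6 and Ccnd1 were higher in 4OHT at day 2, and neither effect passed at day 4. Cdk6, a G1 kinase that partners D-type cyclins, measured 74.4, 89.5, 78 and 98 CPM in DMSO and 132, 124, 142 and 141 CPM in 4OHT at day 2, then 118, 123, 111 and 123 CPM in DMSO and 123, 107, 99.3 and 110 CPM in 4OHT at day 4. The groups were apart at day 2 and overlapped at day 4, with DMSO higher at day 4 than at day 2 in every library. The ratio was 1.58 at day 2 and 0.925 at day 4, an interaction of -0.77 (SE 0.11, edgeR adjusted p = 0.001937). Its cyclin partner Ccnd1, a Wnt target, lay at 324 to 395 CPM in DMSO and 481 to 594 CPM in 4OHT at day 2, and at 280 to 319 against 275 to 316 CPM at day 4. Ccnd1 was 1.48 times the control at day 2 and at the control level (1.0 times) at day 4, an interaction of -0.56 (SE 0.1, edgeR adjusted p = 0.01208).

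Apcdd1, a Wnt inhibitor and Wnt target, lay at 0.856 to 1.7 CPM in DMSO and 1.25 to 1.77 CPM in 4OHT at day 2. At day 4 it lay at 2.69 to 3.48 CPM against 1.18 to 1.5 CPM. The rise over time was called in DMSO, no change was called in 4OHT, and the interaction was -1.48 (SE 0.25, edgeR adjusted p = 0.007557). Of 21 tested Wnt target and feedback genes these 2, Ccnd1 and Apcdd1, were called (9.52% against 1.68% of all genes in either direction). Among 20 Wnt ligand, receptor and secretion genes the receptor gene Fzd7 was called (5% against the same 1.68%). Its interaction was -0.34, kept in 3 of the 16 left-out fits (adjusted p up to 0.1167). Smoc2, a matricellular protein of the Lgr5 stem cell signature, measured 287, 265, 255 and 258 CPM in DMSO and 184, 175, 176 and 174 CPM in 4OHT at day 2, and 402, 376, 399 and 405 against 362, 354, 341 and 323 CPM at day 4. It was lower in 4OHT at both days without overlap, 0.666 and 0.872 times the control, and the effect faded (interaction 0.39, SE 0.069, edgeR adjusted p = 0.01092).

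None of the 54 tested genes of DNA replication and mitosis was called by edgeR, 20 were more negative at an unadjusted p below 0.05, and DESeq2 called 3, all more negative. A positive sign was found for 1 member, and the median was -0.17. The median effect of 4OHT on them was -0.11 at day 2 and -0.28 at day 4, with 16 members lower at day 2 and 45 at day 4. With the replicate block 22 were called and with the block at day 4 only 7, all more negative. Cdc6, a licensing factor of replication origins, had an interaction of -0.38 (adjusted p = 0.05505, and 0.00213 with the block), Top2a, the mitotic topoisomerase, one of -0.27 (0.1933 and 0.02203), and the proliferation marker Mki67 one of -0.31 (0.4838 and 0.03001). The p53 target list went the other way, with 3 of 35 called, all more positive (8.57% against 1.2% of all genes, median 0.16). They were the apoptosis gene Bbc3 (0.47), the epoxide hydrolase gene Ephx1 (0.46) and Zmat3 (0.41), the call of Ephx1 being kept in 7 and that of Zmat3 in 6 of the 16 left-out fits.

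Among the effects that faded were those on the matrix and cytoskeleton genes Timp2 and Phldb2. Timp2, an inhibitor of matrix metalloproteinases, measured 6.92, 6.59, 6.49 and 7.8 CPM in DMSO and 17.8, 15, 18.3 and 23.2 CPM in 4OHT at day 2, then 14.5, 14.6, 15.2 and 16.1 CPM in DMSO and 20.2, 18.4, 20.9 and 24.1 CPM in 4OHT at day 4. The 4OHT libraries of the 2 days overlapped each other while DMSO rose, and the ratio went from 2.68 to 1.38 without overlap of the treatments at either day. The interaction was -0.95 (SE 0.15, edgeR adjusted p = 0.005651). Sbsn, of cornified squamous epithelium, faded from 4.01 to 1.66 times the control (-1.27). Phldb2, which anchors microtubules at the cell cortex, went from 2.41 to 1.33 times the control (-0.86, kept in 7 of the 16 left-out fits), and Cd177, a membrane glycoprotein known from neutrophils, from 0.578 to 0.831 times (0.53, kept in 5).

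At day 2 only, the phosphatase gene Ptpn14, a brake on Yap, stood at 2.13 times its control and the secreted semaphorin gene Sema3c at 1.97 times. At day 4 both overlapped the control (1.17 and 1.18 times), with interactions of -0.86 and -0.74, kept in 5 and 6 of the 16 left-out fits. Ihh, the hedgehog ligand that epithelium sends to the mesenchyme, was lower in 4OHT at day 2 only (0.783 times, then 1.07 times), with an interaction of 0.46. It was named after its values were seen.

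Pkp1, a desmosomal plaque protein, had the smallest p of the 4 lower genes whose effect grew. It measured 53, 54.7, 53.2 and 56.2 CPM in DMSO and 43.5, 40.9, 48 and 45.3 CPM in 4OHT at day 2, then 72.2, 75.9, 76.2 and 78.4 CPM in DMSO and 37.3, 40.4, 38.1 and 36.3 CPM in 4OHT at day 4. DMSO rose and 4OHT fell, no groups overlapped, and the ratio went from 0.818 to 0.502, an interaction of -0.7 (SE 0.071, edgeR adjusted p = 6.8e-05). Fam171a1 (-0.4) and Tgif2, a repressor of TGF-beta responses (-0.46), also grew lower, kept in 5 and 4 of the 16 left-out fits (adjusted p up to 0.08853 and 0.1106). At day 4 only, the anion transporter gene Slco3a1 fell to 0.603 times its control (-0.61, kept in 10) and the chondroitin sulfotransferase gene Chst11 to 0.698 times (-0.53, kept in 6).

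Among higher genes, Pear1, a transmembrane receptor with EGF-like repeats, measured 19.6, 23.1, 20 and 21.8 CPM in DMSO and 39.7, 36, 40.1 and 36.8 CPM in 4OHT at day 2, then 2.66, 2.34, 1.67 and 3.13 CPM in DMSO and 14.1, 10.9, 13.4 and 16 CPM in 4OHT at day 4. Both treatments fell and no groups overlapped, the ratio going from 1.8 to 5.54, an interaction of 1.62 (SE 0.18, edgeR adjusted p = 0.00025). Capg, an actin-capping protein of the fetal and regenerating epithelium list, measured 34.8 to 37.1 CPM in DMSO and 74.1 to 82.8 CPM in 4OHT at day 2. By day 4 it measured 3.89 to 5.96 CPM in DMSO and 23, 17.8, 34 and 56.7 CPM in 4OHT, the highest in replicate 4, set apart on the second component. The ratio went from 2.23 to 7.11, an interaction of 1.67 (SE 0.38, edgeR adjusted p = 0.04035), kept in 6 of the 16 left-out fits (adjusted p up to 0.09456). Without 4OHT day 4 replicate 4 it was 1.28 (adjusted p = 0.01109).

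Capg was the 1 call among 39 tested fetal and regenerating genes (2.56% against 1.68% of all genes in either direction). Yet 34 of the 39 were higher in 4OHT at day 2 and 36 at day 4. The median effect of the list was 0.83 at day 2 and 1.63 at day 4. The median interaction of 0.7 ranged from 0.448 to 0.946 over the left-out fits. With the replicate block 17 were more positive and 1 more negative, and with the block at day 4 only 14 and 1. Anxa10, a gastric annexin of the same list, went from 1.77 to 5.34 times the control, an interaction of 1.59 (adjusted p = 0.05505, and 7.3e-05 with the block). In the squamous and gastric list 4 of 35 tested were called (11.4% against 1.68% of all genes in either direction). Gsdmc2 and Gsdmc4, near-identical gasdermin genes, grew (1.48 and 1.53, kept in 8 and 7 of the 16 left-out fits). Sbsn faded, and the basal keratin gene Krt15 was lower at day 4 only (-1.05). Vsig1, an adhesion protein of gastric epithelium named after its values were seen, grew from 3.82 to 14.1 times the control (1.88).

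Of the 9 genes that turned from higher to lower, Rgs12, which speeds the shut-off of G protein signals, measured 7.03, 7.46, 6.45 and 7.62 CPM in DMSO and 9.17, 7.93, 10.5 and 10.2 CPM in 4OHT at day 2, then 13.7, 15, 13.4 and 15.9 CPM in DMSO and 9.54, 10.4, 10.1 and 10.4 CPM in 4OHT at day 4. 4OHT lay above DMSO in every library at day 2 and below it at day 4, and the change over time was called in DMSO and not in 4OHT. The ratio went from 1.33 to 0.698, an interaction of -0.93 (SE 0.12, edgeR adjusted p = 0.00074). Fam84a crossed in the same way, from 1.29 to 0.781 times its control (-0.73), as did Clic4, an intracellular chloride channel protein, from 1.23 to 0.803 times (-0.62), neither with overlap at either day. In the upward direction Aldh3b1, which oxidizes fatty aldehydes, went from 0.82 to 1.39 times (0.76), overlapping at day 2, and St3gal4, a sialyltransferase, from 0.728 to 1.21 times (0.73), with no overlap.

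None of 34 tested Hnf4a partners and intestinal transcription factors had a called interaction by edgeR (6 at an unadjusted p below 0.05), by DESeq2 1 was called, and 5 with the replicate block, all more positive. None of these factors was called with the block at day 4 only. Their median effect was -0.07 at day 2 and 0.04 at day 4. The paralogue Hnf4g stood at 1.15 times its control at day 2 (adjusted p = 0.08759) and 1.43 times at day 4, with an interaction of 0.31 (SE 0.12, edgeR adjusted p = 0.1786). Creb3l3, a transcription factor of lipid metabolism, had the largest value of the list, 0.61 (adjusted p = 0.08535, and 0.00229 with the block). Cytosolic ribosomal protein genes, 44 tested, lay within -0.04 to 0.11 with none called by edgeR, by DESeq2 or with the block and 0 at an unadjusted p below 0.05.

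The remaining lists held few calls. By edgeR without a block none was called among 24 tuft cell, 28 metallothionein, zinc, iron and haem, and 25 cholesterol synthesis genes. The same held for 34 glycolysis and hypoxia, 33 unfolded protein and amino acid stress, and 21 BMP and Id genes. It also held for 28 immediate early and heat shock genes, 15 mitochondrially encoded genes and 5 stromal markers. The share called was 8% for stem cell genes, 3.03% for enteroendocrine genes, 3.85% for the fructose and citrulline list and 7.69% for Hippo-Yap targets. Over all genes it was 1.68% in either direction. Of 25 tested crypt base stem cell genes Cdk6 and Smoc2 were called, in opposite directions. The list had a median interaction of 0.14, with 10 members more positive and 4 more negative at an unadjusted p below 0.05. Most members were lower in 4OHT: 17 lower and 2 higher at day 2, and 15 lower and 2 higher at day 4. Of 33 enteroendocrine genes Ddc, which makes serotonin and dopamine from their precursors, turned (0.41, kept in 4 of the 16 left-out fits), and of 26 genes of fructose, gluconeogenesis and citrulline metabolism Oat, ornithine aminotransferase, was lower in 4OHT at day 2 only (0.49, kept in 7). Of 26 Hippo-Yap targets Ptpn14 and the apoptosis inhibitor gene Birc3 (0.27, kept in 5) were called, in opposite directions.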

How the data were processed

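Poly(A) RNA of 16 organoid libraries was sequenced, and the authors deposited raw counts per gene in 1 table for each day. Per the submitters' processing notes bcl2fastq 1.8.4, STAR 2.4.0f1 and the GRCm38 build were used. Neither the counter nor its annotation or use of strand is named in the sources used here, and 16 columns of normalized values were not used. The 19964 genes listed in both tables were joined by identifier (826 and 694 stood in 1 table only), and each library's total came from its whole table. Genes were kept by filterByExpr (16597) and tested with edgeR 4.0.16 (R 4.3.3, limma 3.58.1): TMM scaling, robust quasi-likelihood fit with 1 mean per group, Benjamini-Hochberg adjustment. The script was tested on simulated data. All 24 pairs of libraries within a group differed by more than counting noise (chi-square per gene 8.89 to 143.95). DESeq2 1.42.0, other filters, a replicate block and leaving out each library were alternatives.

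Named genes were, in each class and direction, the 3 of largest interaction among called genes with a mean log2 CPM of 3 or more, and in each of 34 lists the 2 of smallest p and the 2 of highest level, with other called list members and genes marked so added after their values were seen. Results for some genes the rule names are not reported here. The members and lists were chosen with earlier results of these data known. Gene positions are from GENCODE M21 on GRCm38. Replicate numbers paired libraries at day 4 by their deviations and not at day 2, and the labels do not say what a number marks.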

Additional observations from a re-analysis of the deposited data

Results flagged for a closer look

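The effect of 4OHT differed between the days, by the test of the interaction itself, for 199 genes in the more positive and 79 in the more negative direction. Among the named genes of defence, alarm and interferon response the interaction (log2) was 1.82 for Reg3g, 1.73 for Ccl20, 1.53 for Nos2, 1.45 for Nox1, 1.38 for Ifit1bl1, 1.35 for Cxcl1, 1.1 for Batf2, 1.02 for Reg3b, 0.88 for Irf7, 0.86 for Reg1, 0.67 for Nfkbia, 0.59 for Zc3h12a, 0.54 for Oas1a, 0.33 for Noxo1 and 0.27 for Birc3. Among secretory cell genes it was 1.48 for Mptx1, 0.84 for Clca1, 0.8 for Zg16, 0.53 for Reg4, 0.47 for Kcnk6, 0.44 for Agr2, 0.41 for Ddc and 0.4 for Ccl9. Among metabolic and absorptive genes it was 1.4 for Fgf15, 0.99 for Akr1b8, 0.89 for Ces2a, 0.84 for Acaa1b, 0.76 for Slc26a6 and Aldh3b1, 0.73 for St3gal4, 0.72 for Alpi, 0.7 for Mep1b and Ces1f, 0.68 for Akr1c19, 0.67 for Gsta4, 0.64 for Gstm1 and Cyp3a13, 0.49 for Gsta3 and Oat, 0.46 for Ephx1 and -1.04 for Fgfr4. Among stem cell, Wnt, cell cycle and p53 genes it was 0.47 for Bbc3, 0.46 for Ihh, 0.41 for Zmat3, 0.39 for Smoc2, -0.34 for Fzd7, -0.56 for Ccnd1, -0.77 for Cdk6, -0.86 for Ptpn14 and -1.48 for Apcdd1. Of the other named genes, Vsig1 had 1.88, Capg 1.67, Pear1 1.62, Gsdmc4 1.53, Gsdmc2 1.48, Cd177 0.53, Fam171a1 -0.4, Tgif2 -0.46, Chst11 -0.53, Slco3a1 -0.61, Clic4 -0.62, Pkp1 -0.7, Fam84a -0.73, Sema3c -0.74, Phldb2 -0.86, Rgs12 -0.93, Timp2 -0.95, Krt15 -1.05 and Sbsn -1.27.

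Single libraries stood far from the other 3 of their group in 9 of 332 sets of 4 libraries checked for the named genes (2.71%). For unselected sets the cut-off used flags about 1 in 20. Most of the genes were named after a small interaction p in these same libraries, which favours a small spread, so that rate is no yardstick here. The flagged sets were Cd177 in 4OHT day 2 replicate 2 (7.44 CPM) and 4OHT day 4 replicate 1 (18.5 CPM), Ptpn14 in DMSO day 4 replicate 4 (12.5 CPM) and Cdc6 in 4OHT day 4 replicate 2 (31.9 CPM). The others were Zmat3 in 4OHT day 2 replicate 2 (83.3 CPM), Anxa10 in DMSO day 4 replicate 4 (19.1 CPM), Ccl20 in DMSO day 2 replicate 1 (8.35 CPM), Nos2 in 4OHT day 2 replicate 4 (4.42 CPM) and Cxcl1 in 4OHT day 2 replicate 3 (0.956 CPM).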

How the results depend on the processing

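With a replicate block within day the counts were 1170 more positive, 680 more negative, 282 grew, 171 faded, 170 turned, 634 at day 4 only and 567 at day 2 only. With a replicate block at day 4 only they were 641, 324, 207, 70, 69, 353 and 262 in the same order. DESeq2 gave 600 more positive and 247 more negative genes, 135 that grew, 54 that faded, 312 at day 4 only and 281 at day 2 only, with 2896 adjusted p-values not given. A minimum of 1 CPM in 4 libraries gave 76 genes that grew. An adjusted p below 0.01 left 17 more positive, 11 more negative, 7 that grew, 3 that faded, 4 that turned, 11 at day 4 only and 3 at day 2 only. A minimum of 1.5-fold left 93 more positive, 40 more negative, 9 that faded, 21 that turned, 46 at day 4 only and 27 at day 2 only. Other values under these settings, and all values with DESeq2 size factors, no filter, genes of 1 table added or libraries thinned to the smallest total, stayed within 1.5 times the counts in the report. Over the 16 fits without 1 library the ranges were 66 to 502 more positive, 28 to 225 more negative, 19 to 116 grew, 8 to 54 faded, 13 to 64 turned, 33 to 261 at day 4 only and 17 to 287 at day 2 only. The interaction of Wnt3 ranged from -0.052 to 0.104 over these fits, below 0 without DMSO day 2 replicate 4 (-0.052) and without 4OHT day 2 replicate 1 (-0.026). All 278 genes kept their sign in every setting that tested them. Genes picked by a small p in the same libraries were unlikely to change sign, so this is no separate support. The cause of the changed counts was not tested.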

Other observations

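Some called genes lay beside one another on the chromosome. Of 16519 tested genes with a position 278 were called. In 23 pairs of genes adjacent among those tested both were called, and in all 23 the 2 interactions had the same sign. The pairs included the detoxification genes Cbr1 and Cbr3 (interactions 0.62 and 0.78), Gsta4 and Gsta1 (0.67 and 0.57), Cyp2j6 and Cyp2j9 (0.62 and 0.66), Sult1b1 and Sult1d1 (0.54 and 0.44), and the run Ces2a, Ces2b and Ces2c (0.89, 0.65 and 0.61). Other pairs were the lectin genes Reg1 and Reg3g (0.86 and 1.82), the chemokine genes Cxcl1 and Cxcl2 (1.35 and 2.04), and Syt8 and Tnni2 (1.28 and 1.13), a synaptotagmin and a fast muscle troponin gene. Cxcl1 and Cxcl2 were near the floor, with a mean log2 CPM of -0.01 and -1.58. In 3 of the 23 pairs the genes overlap, and several pairs are paralogues whose reads may be shared. Of the genes named here, fits without 1 library kept the calls of Ces2a, Reg3g, Cxcl1, Syt8 and Tnni2 in all 16. The other calls were kept in fewer of the 16: Cyp2j9 in 10, Reg1 in 9, Cyp2j6 and Ces2c in 8, Cxcl2 in 7, Cbr1, Cbr3, Gsta1, Gsta4 and Sult1d1 in 6, Ces2b in 5 and Sult1b1 in 4. No comparison with chance was made.

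Secreted and signalling genes of host defence outside the lists, chosen after their values were seen, were also more positive at day 4. They were the complement gene C3 (interaction 0.87, kept in 9 of the 16 left-out fits), the lipopolysaccharide-binding protein gene Lbp (1.13, kept in all 16), the macrophage growth factor gene Csf1 (0.96, kept in 3) and the NF-kB inhibitor gene Tnip3 (1.99, kept in 4). Fut2, the fucosyltransferase that fucosylates the epithelial surface, grew higher (0.8, kept in 8), and Mycn, a Myc family transcription factor, grew lower (-1.09, kept in 4). Angptl4, a lipase inhibitor that fatty acids induce, was lower in 4OHT at day 2 only (0.53, kept in 4).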
